A study of Mus musculus with 6 samples.

Results

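The heat shock chaperones described here are 10 genes of the 22180 that the array measured with at least 1 probe group annotated to a single gene symbol (called a cluster here). They were selected on measured values of these mice, with the standing out of single mice already known, and each was read through the cluster with the highest mean over all mice, in colonic mucosa of 2 Mthfd1S+/- and 4 wild-type (WT, Mthfd1S+/+) mice. All 6 were male BALB/c mice, 1 array each, backcrossed for at least 10 generations. The letter in the mouse identifier was A for mouse 1 of each genotype and B for all other mice. The 2 Mthfd1S+/- mice thus differ in this letter. Mthfd1S+/- mice are deficient in the synthetase activity of MTHFD1, a cytosolic folate enzyme. Another label field writes the genotype as Mthfd1+/-. Every mouse, WT included, had received 6 mg/kg azoxymethane (AOM, a colon carcinogen) into the peritoneal cavity. The colitis-inducing polymer dextran sulfate sodium (DSS) followed at 3% in 2 cycles of 4 days, at weeks 1 and 4, and the mice were killed at week 13. The mice were 3 months old when injected, and a separate age label says 7 months. The tissue was normal mucosa from beside tumours, kept frozen before RNA isolation. The hour at which each mouse was killed is not given in the sources used here.

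Heat shock chaperones bind unfolded proteins and help them fold, or hand them on for destruction. The inducible ones are kept low in resting cells and are switched on by the transcription factor HSF1 when proteins unfold, as in heat, oxidative stress or injury. The constitutive ones are made at all times in large amounts. In the HSP70 cycle a J-domain protein delivers the client, HSP70 binds it with ATP hydrolysis, and an HSP110 or BAG protein helps to release it. HSP60 and HSP10 form a closed folding chamber in the mitochondrion.

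The inducible members were the HSP70 genes Hspa1a and Hspa1b, the J-domain gene Dnajb1, the HSP110 gene Hsph1, the HSP90 gene Hsp90aa1, the small heat shock gene Hspb1 and Bag3, a co-chaperone of HSP70 that is no chaperone by itself. The constitutive members were Hspa8 (the HSC70 of resting cells), Hspd1 (HSP60) and Hspe1 (HSP10). Levels are log2 values, so a step of 1 is a doubling, and they are compared between mice within a gene and never between genes. Because of how the members were chosen, what follows on single mice in the members is a description with no test.

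The sequences before the start sites of 5 members are shown because these members had the most unlike patterns across mice, or share their start region. HSF1 binds inverted repeats of GAA. The capitals mark GAANNTTC, 1 such repeat in either phase (TTCNNGAA), and the longer GAANNTTCNNGAA on either strand, which contains it. The sequences are the 250 bases before a start site in RefSeq, build GRCm38.p6, 5′ to 3′ on the gene's strand.
Hspa1a (chr17:34972157-34972406, minus strand): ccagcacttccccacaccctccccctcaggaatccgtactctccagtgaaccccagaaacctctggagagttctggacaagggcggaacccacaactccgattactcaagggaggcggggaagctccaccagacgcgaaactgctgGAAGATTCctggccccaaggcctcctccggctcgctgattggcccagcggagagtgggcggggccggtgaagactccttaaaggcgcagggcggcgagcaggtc
Hspa1b (chr17:34959239-34959488, minus strand): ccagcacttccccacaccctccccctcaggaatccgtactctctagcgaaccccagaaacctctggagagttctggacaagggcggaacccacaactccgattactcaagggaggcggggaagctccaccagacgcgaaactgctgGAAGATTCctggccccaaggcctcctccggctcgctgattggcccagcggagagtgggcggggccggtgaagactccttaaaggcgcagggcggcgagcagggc
Hsph1 (chr5:149636337-149636586, minus strand): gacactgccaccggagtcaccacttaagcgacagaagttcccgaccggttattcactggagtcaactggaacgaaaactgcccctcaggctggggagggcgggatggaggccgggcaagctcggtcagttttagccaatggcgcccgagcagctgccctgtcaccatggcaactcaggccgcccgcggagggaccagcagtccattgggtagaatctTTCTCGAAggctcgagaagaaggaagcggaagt
Hspb1 (chr5:135887669-135887918, plus strand): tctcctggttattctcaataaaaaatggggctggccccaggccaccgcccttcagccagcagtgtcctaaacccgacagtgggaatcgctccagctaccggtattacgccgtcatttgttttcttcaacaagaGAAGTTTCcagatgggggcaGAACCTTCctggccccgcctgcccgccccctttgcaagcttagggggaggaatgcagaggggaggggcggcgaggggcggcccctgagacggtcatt
Hspe1 (chr1:55087898-55088147, plus strand): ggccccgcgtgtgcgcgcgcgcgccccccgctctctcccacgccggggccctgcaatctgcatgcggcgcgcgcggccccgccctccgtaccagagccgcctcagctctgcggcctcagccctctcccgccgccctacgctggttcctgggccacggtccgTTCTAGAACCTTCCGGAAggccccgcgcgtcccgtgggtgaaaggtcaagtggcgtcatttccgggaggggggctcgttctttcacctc

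Hspa1a and Hspa1b lie next to each other on chromosome 17, and 247 of the 250 bases before their start sites are identical. The stretch shown for Hspe1 overlaps the stretch before the second RefSeq start site of Hspd1, which is transcribed away from it on chromosome 1, and the capitals are matches for both genes. RefSeq start sites were at hand for 8 of the 10 members, with the exceptions of Hsp90aa1 and Hspa8. In windows of 300 bases (250 before and 50 after a start site) GAANNTTC was found for 7 of the 8, and in 15.1% of all 32851 promoter windows. The longer GAANNTTCNNGAA was found for 3 of the 8 (Hsph1, Hspd1 and Hspe1), and in 0.603% of all windows. Hsph1 holds it as ttctggaaagttc, with its first base at 37 after the first start site. Chordc1, described further on, had the longer one from base -4, while Ahsa2 and Cacybp, described there too, had neither form. Dnajb1 had neither arrangement of letters in its windows. The counts are of genes with a match in any of their windows, while the shares are of single windows. Hspd1 and Hspe1 share the same matching bases, and Hspa1a and Hspa1b are nearly identical here, so these genes do not count separately. Such matches are descriptions of the letters and not binding sites.

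Of the members, the HSP70 genes had the widest ranges over the mice. Hspa1a read 8.58 and 9.41 in Mthfd1S+/- mice 1 and 2, against 8.30, 10.97, 7.66 and 7.75 in WT mice 1 to 4. WT mouse 2 was far above every other mouse, Mthfd1S+/- mouse 2 came next, and the genotypes overlapped. Over the 6 mice the level spanned 3.31 on the log2 scale, or 9.95-fold. WT mouse 2 stood 3.07 above the mean of the other WT mice, or 8.38-fold. Hspa1b read 8.35 and 10.10 in Mthfd1S+/- mice 1 and 2, against 8.51, 10.98, 8.01 and 7.93 in WT mice 1 to 4. Again WT mouse 2 was highest and Mthfd1S+/- mouse 2 second, here with a clear gap to all the rest. The level in WT mouse 2 was 7.13-fold above the mean of the other WT mice, and Mthfd1S+/- mouse 2 was 3.36-fold above mouse 1.

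By the spread among WT mice (SD 1.56 for Hspa1a and 1.44 for Hspa1b, n = 4 each), they ranked 6 and 10 of 22180 genes, and Hspb1 ranked 37. By the excess of Mthfd1S+/- mouse 2 over mouse 1, Hspa1b ranked 1, Hsph1 3, Hspb1 37 and Hspa1a 69. The transcripts of both genes are nearly the same, so the probes of each may read both, and they are not 2 independent measurements. A further cluster, which the platform table assigns to both genes, gave 5.27 and 6.33 in the Mthfd1S+/- mice, against 5.13, 7.15, 5.04 and 5.13 in WT mice 1 to 4. It had the same top pair of mice. Hspa1l, the testis HSP70 gene that neighbours Hspa1a on the chromosome, read 5.26 and 5.07 in Mthfd1S+/- mice, against 5.37, 5.17, 5.16 and 5.17 in WT mice. It was not raised in either of those mice (a gene named after its values were seen).

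Hsph1, the nucleotide exchange factor of the cycle, read 8.40 and 9.87 in Mthfd1S+/- mice 1 and 2, against 8.81, 9.22, 8.53 and 8.04 in WT mice 1 to 4. Here the order of the top pair was turned round: Mthfd1S+/- mouse 2 was highest and WT mouse 2 second. Mthfd1S+/- mouse 2 was 2.78-fold above mouse 1, and WT mouse 2 was 1.69-fold above the mean of the other WT mice. Dnajb1, which delivers clients to HSP70, read 7.22 and 7.50 in Mthfd1S+/- mice, against 7.20, 8.017, 6.958 and 7.003 in WT mice. Again WT mouse 2 was on top, 1.95-fold above the mean of the other WT mice, with a smaller excess of 1.21-fold in Mthfd1S+/- mouse 2 over mouse 1.

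Hsp90aa1, the inducible cytosolic HSP90, read 8.40 and 8.85 in Mthfd1S+/- mice, against 8.62, 8.43, 8.53 and 8.27 in WT mice. Only Mthfd1S+/- mouse 2 was high in this gene, and WT mouse 2 lay among the other WT mice. Bag3, which couples HSP70 to selective autophagy, read 9.02 and 9.38 in Mthfd1S+/- mice, against 8.95, 9.26, 9.06 and 8.99 in WT mice. Mthfd1S+/- mouse 2 and WT mouse 2 were the top pair in Bag3 as well, within a span of 0.43.

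Hspb1, a small heat shock protein abundant in muscle, went the other way in WT mouse 2. It read 7.95 and 8.90 in Mthfd1S+/- mice 1 and 2, against 8.53, 7.28, 8.68 and 8.58 in WT mice 1 to 4. The mouse with the most Hspa1a thus had the least Hspb1, 2.49-fold below the mean of the other WT mice. Highest was Mthfd1S+/- mouse 2, 1.94-fold above mouse 1. A second, dimmer cluster named Hspb1 gave 5.01 and 5.55 in Mthfd1S+/- mice, against 5.31, 4.45, 5.16 and 5.35 in WT mice, with the same mouse lowest and the same mouse highest.

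Among the constitutive members, Hspa8 read 11.39 and 11.92 in Mthfd1S+/- mice, against 11.37, 11.71, 11.22 and 11.19 in WT mice. Mthfd1S+/- mouse 2 was highest and WT mouse 2 second, 1.44-fold above mouse 1 and 1.37-fold above the mean of the other WT mice. The dimmer clusters named Hspa8 alone had Mthfd1S+/- mouse 2 between 0.70 and 0.84 above mouse 1 and WT mouse 2 between 0.52 and 0.60 above the mean of the other WT mice. A further cluster, which the platform table assigns to both Snord14e and Hspa8, read 9.93 and 9.27 in Mthfd1S+/- mice, against 9.79, 10.83, 8.98 and 8.92 in WT mice. There Mthfd1S+/- mouse 2 was 0.66 below mouse 1, and WT mouse 2 was highest. Hspa8 has many processed copies in the genome that these clusters may also read. Hspd1 read 9.58 and 9.66 in Mthfd1S+/- mice, against 9.64, 9.32, 9.60 and 9.52 in WT mice, and WT mouse 2 was lowest. Hspe1 read 6.24 and 6.45 in Mthfd1S+/- mice, against 6.19, 6.24, 6.32 and 6.24 in WT mice, and only Mthfd1S+/- mouse 2 was apart. Over the 6 mice, Hspd1 and Hspe1 spanned 0.34 and 0.26 on the log2 scale. They share a start region, yet WT mouse 2 was lowest in Hspd1 and among the other WT mice in Hspe1. This contrast is small and was not tested. WT mouse 2 minus the mean of the other WT mice was -0.27 for Hspd1. The Hspe1 cluster read 6.19 to 6.45, where array medians were 5.485 to 5.532.

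**Figure D1:**
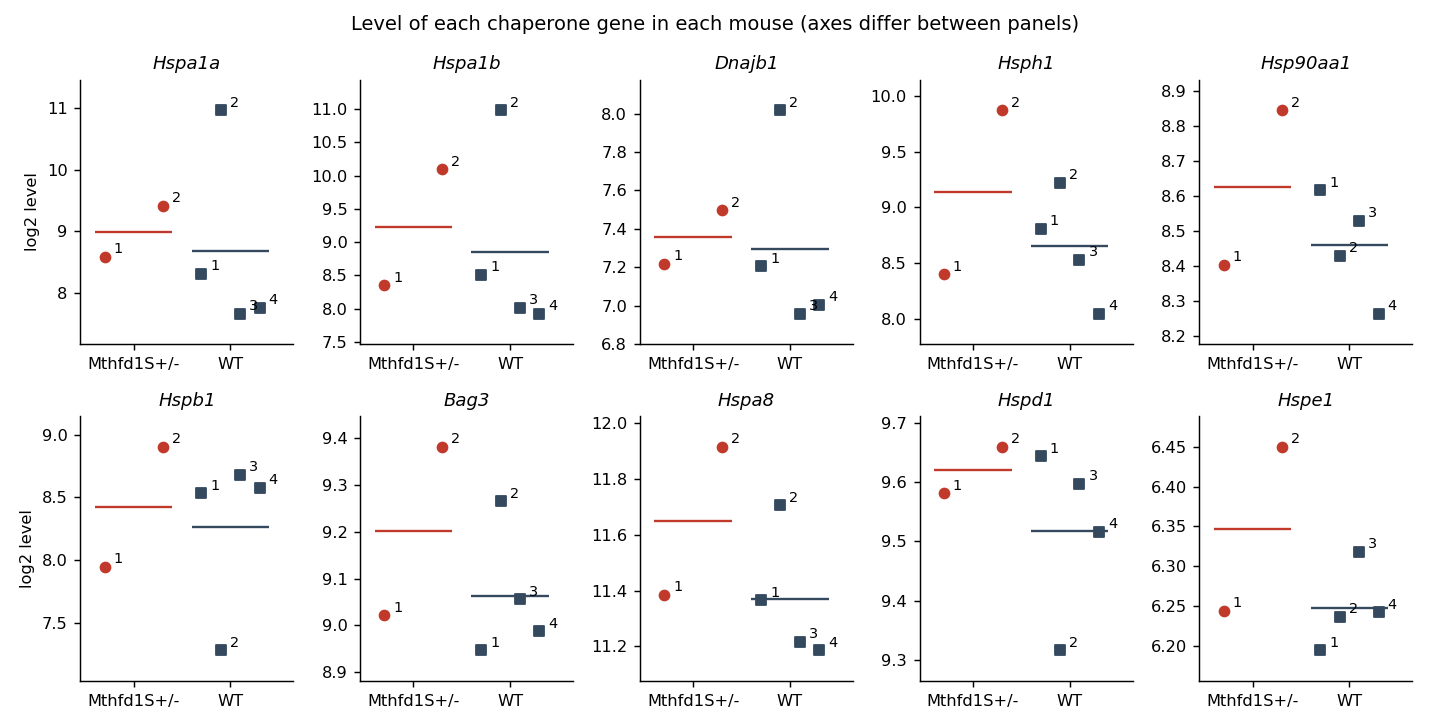
Log2 level of each of the 10 chaperone genes (y axis, its own range per panel) in each mouse, with Mthfd1S+/- mice as red circles and WT mice as dark squares, numbered by mouse; horizontal bars are genotype means. Mthfd1S+/- mouse 2 and WT mouse 2 are the top pair for Hspa1a, Hspa1b, Dnajb1, Hsph1, Bag3 and Hspa8, and WT mouse 2 is lowest for Hspb1 and Hspd1.

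Counted over the members, Mthfd1S+/- mouse 2 was the highest of the 6 mice in 7 of 10, where it was highest in 19.3% of all tested clusters. In WT mouse 2 lay the highest value of the remaining 3 (Hspa1a, Hspa1b and Dnajb1), against 15.2% of clusters. The lowest mouse was WT mouse 4 in 4 members, against 14.3% of clusters, and WT mice 1, 2 and 3 in 2 each, against 19.0%, 18.2% and 15.6%. Within WT, mouse 2 was at least 1.5-fold above the mean of the other mice in 4 of 10 members (Hspa1a, Hspa1b, Dnajb1 and Hsph1), and in 0.459% of all clusters. It was at least 1.5-fold below in 1 (Hspb1), and in 0.425% of clusters. For WT mouse 1 no member passed this fold in either direction, where 0.561% of clusters did above and 0.502% below. WT mouse 3 had 2 members below (Hspa1a and Hspa1b; 0.336% of clusters) and WT mouse 4 had 3 (these and Hsph1; 0.578% of clusters), in means that include WT mouse 2. Mthfd1S+/- mouse 2 was at least 1.5-fold above mouse 1 in 4 members (Hspa1a, Hspa1b, Hsph1 and Hspb1), and in 1.26% of clusters. These are single arrays, the members were chosen with such values known, and related members do not count separately.

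The inducible and the constitutive members were set side by side in each mouse through their deviations, the value of a gene in a mouse minus its mean over the 6 mice. The mean deviation of the 7 inducible members was -0.27 and 0.60 in Mthfd1S+/- mice 1 and 2, against -0.13, 0.62, -0.34 and -0.47 in WT mice 1 to 4. That of the 3 constitutive members was -0.03 and 0.24 in Mthfd1S+/- mice, against -0.03, -0.01, -0.05 and -0.12 in WT mice. The constitutive mean rested on Hspa8: without it the mean was 0.14 in Mthfd1S+/- mouse 2 and -0.14 in WT mouse 2. In WT mouse 2 it joined Hspa8 at 0.24 with Hspd1 at -0.24, and without Hspd1 the mean was 0.31 in Mthfd1S+/- mouse 2 and 0.099 in WT mouse 2. Inducible minus constitutive came to -0.25 and 0.35 in Mthfd1S+/- mice, against -0.098, 0.63, -0.29 and -0.35 in WT mice. With Hspa1a and Hspa1b counted as 1 gene, since they are not independent, the inducible mean was 0.55 in Mthfd1S+/- mouse 2 and 0.37 in WT mouse 2. The genes behind these means were different. In WT mouse 2 the deviations were 2.19 for Hspa1a and 2.00 for Hspa1b. The other inducible members had 0.70 (Dnajb1), 0.41 (Hsph1), 0.155 (Bag3), -0.085 (Hsp90aa1) and -1.04 (Hspb1) there. The inducible mean of WT mouse 2 thus rested on Hspa1a and Hspa1b. In Mthfd1S+/- mouse 2 all 10 members were above their means, from 0.11 for Hspd1 to 1.12 for Hspa1b.

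**Figure D2:**
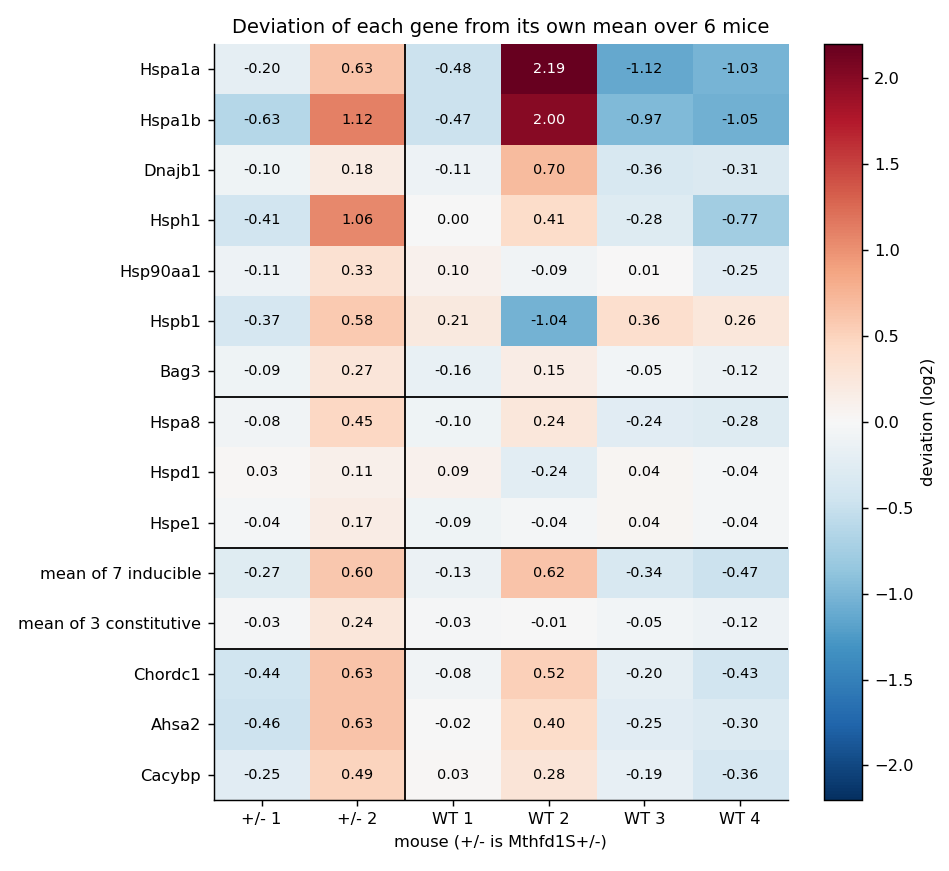
Deviation of each gene from its own mean over the 6 mice (colour and printed value, log2), with mice in columns and genes in rows; the blocks are the inducible members, the constitutive members, the means of both, and the 3 chaperone-related genes closest to the inducible mean. The red cells of WT mouse 2 reach 2.19 for Hspa1a while Hspb1 is at -1.04, and the column of Mthfd1S+/- mouse 2 is above 0 throughout.

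The design asks whether the chaperones differ with the synthetase deficiency. The targeted gene itself (Mthfd1) read 7.96 and 7.63 in Mthfd1S+/- mice, against 7.64, 7.63, 7.50 and 7.75 in WT mice; what the allele does to the transcript is not given in the sources used here, so it is no check of the genotypes. All 10 members had a mean above that of WT, with log2 differences (Mthfd1S+/- minus WT) from 0.06 for Dnajb1 to 0.49 for Hsph1 and a median of 0.16. Over all tested clusters the median was 0.012, and 54.0% of clusters had a difference above 0. None of the 10 passed the test across all 23521 clusters (limma, Benjamini-Hochberg adjusted p under 0.05), where 0.00% of clusters passed. At an unadjusted p under 0.05 there were 0 members, against 5.79% of clusters (1363, and 1220 with unmoderated least squares). The genotypes overlapped for every member, whereas they did not overlap in 14.0% of clusters. The 95% interval included 0 for all 10.

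Hspa1a averaged 8.996 ± 0.59 (SD, n = 2) in Mthfd1S+/- and 8.67 ± 1.56 (SD, n = 4) in WT mucosa. Its log2 difference was 0.32 ± 0.83 (SE), with a 95% interval of -1.58 to 2.23 and an adjusted p of 0.972 in limma. For Hspa1b the difference was 0.37 ± 0.84 (SE), with an interval of -1.55 to 2.28 and an adjusted p of 0.968. Intervals as wide as these leave room for several-fold differences in either direction. Hspa8 had the smallest p among the members: 11.65 ± 0.37 (SD, n = 2) in Mthfd1S+/- and 11.37 ± 0.24 (SD, n = 4) in WT mucosa, a log2 difference of 0.28 ± 0.18 (SE) and an adjusted p of 0.880 in limma. In its next brightest cluster the difference was 0.53, with an unadjusted p of 0.0492 and an adjusted p of 0.837. The tightest intervals were those of Hspe1 (-0.11 to 0.31) and Hspd1 (-0.15 to 0.35).

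The direction rested on Mthfd1S+/- mouse 2. Without it, 8 of the 10 differences were below 0, among them -0.51 for Hspa1b, -0.25 for Hsph1 and -0.32 for Hspb1, and the other two were 0.02 for Hspa8 and 0.06 for Hspd1. Without Mthfd1S+/- mouse 1 the differences were 1.24 for Hspa1b, 1.22 for Hsph1 and 0.74 for Hspa1a. Without WT mouse 2 they were 1.09 for Hspa1a, 1.07 for Hspa1b and -0.17 for Hspb1. Without WT mouse 3 Hspa1a had -0.014, and without WT mouse 4 it had 0.018. Without WT mouse 1 Dnajb1 had 0.032.

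**Figure D3:**
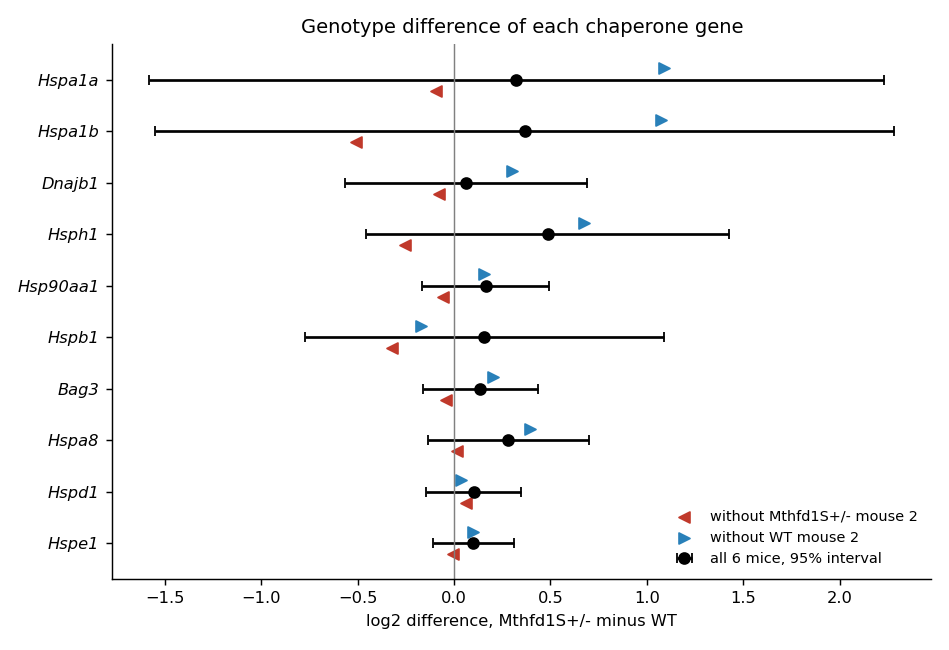
Log2 difference, Mthfd1S+/- minus WT (x axis), for each chaperone gene (rows), with its 95% interval in limma from all 6 mice (black), and the difference without Mthfd1S+/- mouse 2 (red, pointing left) or without WT mouse 2 (blue, pointing right). Every interval crosses 0, and the red marks lie below 0 for 8 of the 10 genes.

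Other chaperone genes were read as lists, and none of their members passed the adjusted threshold. Of other HSP70 and HSP110 genes, 8 of 11 had a difference above 0 (median 0.086) and 1 was at an unadjusted p under 0.05. That was Hspa2, a testis-enriched HSP70, at 6.76 and 6.76 in Mthfd1S+/- mice, against 6.45, 6.46, 6.55 and 6.60 in WT mice, a difference of 0.25 ± 0.085 (SE) with an adjusted p of 0.837 in limma. Its genotypes did not overlap, as in 14.0% of all tested clusters, and neither of the mice high in Hspa1a stood out. Hspa2 lies on chromosome 12, as does the targeted gene Mthfd1. The part of this location in the difference of Hspa2 was not tested. Hspa4l, an HSP110-like gene, read 8.25 and 8.90 in Mthfd1S+/- mice, against 8.46, 8.30, 8.23 and 7.93 in WT mice. The mitochondrial Hspa9 had 0.089 ± 0.089 (SE) and Hspa14, a ribosome-bound HSP70, -0.14 ± 0.083. The genotypes did not overlap for Hspa14 either, which was lower in Mthfd1S+/- mice. Of the HSP90 family, the endoplasmic reticulum form Hsp90b1 had 0.027 ± 0.12 (SE) and the mitochondrial Trap1 0.11 ± 0.089.

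Of other J-domain genes, 13 of 24 had a difference above 0 (median 0.008) and 0 were at an unadjusted p under 0.05. Dnajb2, a neuronal J-domain gene, had 0.21 ± 0.14 (SE), the endoplasmic reticulum gene Dnajb9 0.19 ± 0.12, Dnajb5 0.14 ± 0.097 and the testis gene Dnajb13 -0.10 ± 0.10. Of the cytosolic chaperonin and prefoldin genes, 10 of 13 were above 0 (median 0.081) and 0 were at that p. The chaperonin subunit Cct4 had 0.14 ± 0.093 (SE), and the prefoldin subunits Pfdn6, Pfdn1 and Pfdn2 had 0.13 ± 0.10, -0.14 ± 0.080 and -0.12 ± 0.084. The genotypes did not overlap for Pfdn1 and Pfdn2, both lower in Mthfd1S+/- mice, as in 14.0% of all tested clusters. Of mitochondrial chaperones and proteases, 5 of 9 were above 0 (median 0.028) and 0 at that p, with the protease Lonp1 at 0.14 ± 0.083 (SE), the iron-sulfur co-chaperone Hscb at -0.089 ± 0.088 and the nucleotide exchange factor Grpel1 at -0.093 ± 0.093. Lonp1, higher in Mthfd1S+/- mice, had no overlap of the genotypes either. In WT mouse 2 the mean deviation was -0.003 for J-domain genes, 0.008 for chaperonin and prefoldin and -0.011 for mitochondrial genes, beside 0.62 for the inducible members. That 0.62 rested on Hspa1a and Hspa1b, at 2.19 and 2.00.

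The heat shock factors had 2 of 5 above 0 (median -0.031) and 0 at an unadjusted p under 0.05. Hsf2, a second heat shock factor, read 6.24 and 6.26 in Mthfd1S+/- mice, against 6.18, 6.30, 6.26 and 6.20 in WT mice. The lens factor Hsf4 had a difference of -0.045 ± 0.093 (SE), Hsf5 0.018 ± 0.15, Hsbp1, which binds HSF1 and restrains it, -0.031 ± 0.083 and Hspbap1 -0.065 ± 0.11. Hsf1 had no cluster of a single symbol and was not analysed here.

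Co-chaperones of HSP70 and HSP90 had 16 of 20 above 0 (median 0.10) and 0 at an unadjusted p under 0.05, and other heat-induced genes had 11 of 12 (median 0.16) and 0. Mthfd1S+/- mouse 2 was highest in 12 of the 20 co-chaperones and in 8 of the 12 heat-induced genes, against 19.3% of all tested clusters. Its mean deviations were 0.19 and 0.37. WT mouse 2 was highest in 2 of each list, against 15.2% of clusters, with mean deviations of -0.012 and -0.049. In WT mouse 2 the heat-induced list joined Chordc1 at 0.52 and Cacybp at 0.28 with Cryab at -0.61 and Hspb8 at -0.46. The 2 lists share genes, Chordc1 and Stip1 among them, so their counts are not separate. The HSP70-HSP90 adaptor Stip1 read 9.03 and 9.84 in Mthfd1S+/- mice, against 9.37, 9.14, 9.09 and 8.67 in WT mice, so that WT mouse 2 was unremarkable. The exchange factor Bag2 had a difference of 0.18 ± 0.095 (SE), the HSP70 partner St13 0.19 ± 0.12 and the glucocorticoid-induced Fkbp5 0.18 ± 0.12.

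The genes nearest to the mean profile of the inducible members were sought by the root mean square difference of deviations over the 6 mice, where 0 is an identical profile. The median over all genes was 0.459, and a gene that did not vary would have 0.441. The nearest was Chordc1, a heat-induced partner of HSP90, with 0.102. It read 7.55 and 8.62 in Mthfd1S+/- mice, against 7.91, 8.51, 7.79 and 7.57 in WT mice. Its top pair of mice was the same, which follows from how it was chosen and is no separate result. Ahsa2, related to the HSP90 activator Ahsa1, had 0.149 and read 6.81 and 7.91 in Mthfd1S+/- mice, against 7.26, 7.67, 7.02 and 6.97 in WT mice. Cacybp had 0.176 and read 7.38 and 8.11 in Mthfd1S+/- mice, against 7.66, 7.91, 7.44 and 7.26 in WT mice. The other genes named by this measure were the histone gene H4c14 (0.144), the clock factor Npas2 (0.176), Slfn3 (0.206), Banp (0.221) and H2ac15 (0.226, a dim cluster). Among the members themselves the distance ran from 0.198 for Dnajb1 to 0.807 for Hspb1. The constitutive Hspa8, which does not enter the mean, had 0.203. It was nearer than Hsph1 (0.255), Bag3 (0.306) and Hsp90aa1 (0.37), which do enter it. Hspb1, Hspa1a (0.766), Hspa1b (0.726) and Hspd1 (0.491) were farther from the mean profile than a gene that did not vary. The distance counts the size of a deviation as well as its direction. In WT mouse 2 the mean profile was at 0.62. Hspa1a and Hspa1b went further the same way there, at 2.19 and 2.00, while Hspb1 and Hspd1 went the other way, at -1.04 and -0.24.

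Small heat shock genes other than Hspb1 had 6 of 8 above 0 (median 0.23) and 0 at an unadjusted p under 0.05. Cryab, which encodes alpha B crystallin, read 8.96 and 9.77 in Mthfd1S+/- mice, against 9.14, 8.51, 9.16 and 9.18 in WT mice. Hspb7, of heart and muscle, read 8.42 and 9.30 in Mthfd1S+/- mice, against 8.38, 7.63, 8.37 and 8.75 in WT mice. Hspb8, the partner of Bag3, read 7.99 and 8.39 in Mthfd1S+/- mice, against 7.97, 7.50, 7.98 and 7.91 in WT mice. In these 3 genes, as in Hspb1, Mthfd1S+/- mouse 2 was highest and WT mouse 2 lowest. Hspb6 had a difference of 0.26 ± 0.12 (SE) and Hspb3 0.21 ± 0.10, both, like Hspb8, with no overlap of the genotypes and with adjusted p of 0.837 and 0.854 in limma. Over all tested clusters the genotypes did not overlap in 14.0%.

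Smooth muscle markers had the same mice at their ends. Of 12 markers, all were highest in Mthfd1S+/- mouse 2, against 19.3% of all tested clusters, and 11 were lowest in WT mouse 2, against 18.2%. Their mean deviation was -0.064 and 0.41 in Mthfd1S+/- mice, against -0.17, -0.26, -0.014 and 0.091 in WT mice. Synpo2 and Mylk, of the contractile apparatus, had differences of 0.35 ± 0.19 (SE) and 0.30 ± 0.13, Myh11 had 0.25 ± 0.13, and Casq2, the marker with the smallest p, 0.59 ± 0.23. All 12 smooth muscle markers had a difference above 0 and 1 was at an unadjusted p under 0.05 in limma, against 5.79% of clusters. Neuron and glia markers had 10 of 10 above 0 and 3 at that p. Their mean deviations were 0.019 and 0.34 in Mthfd1S+/- mice, against -0.22, -0.32, 0.063 and 0.12 in WT mice. Fibroblast markers (10 of 10, 2 at that p) had 0.055 and 0.24 in Mthfd1S+/- mice, against -0.12, -0.30, 0.11 and 0.016 in WT mice. Epithelial markers (1 of 12, 0 at that p) had -0.02 and -0.11 in Mthfd1S+/- mice, against 0.067, 0.045, 0.043 and -0.028 in WT mice. In tissue of mixed cells, fewer cells of a type and less RNA per cell cannot be told apart, and the part of these cell types in the values of Hspb1 and the other small heat shock genes was not tested. Hspa1a and Hspa1b did not share this order, since WT mouse 2 was their highest mouse.

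**Figure D4:**
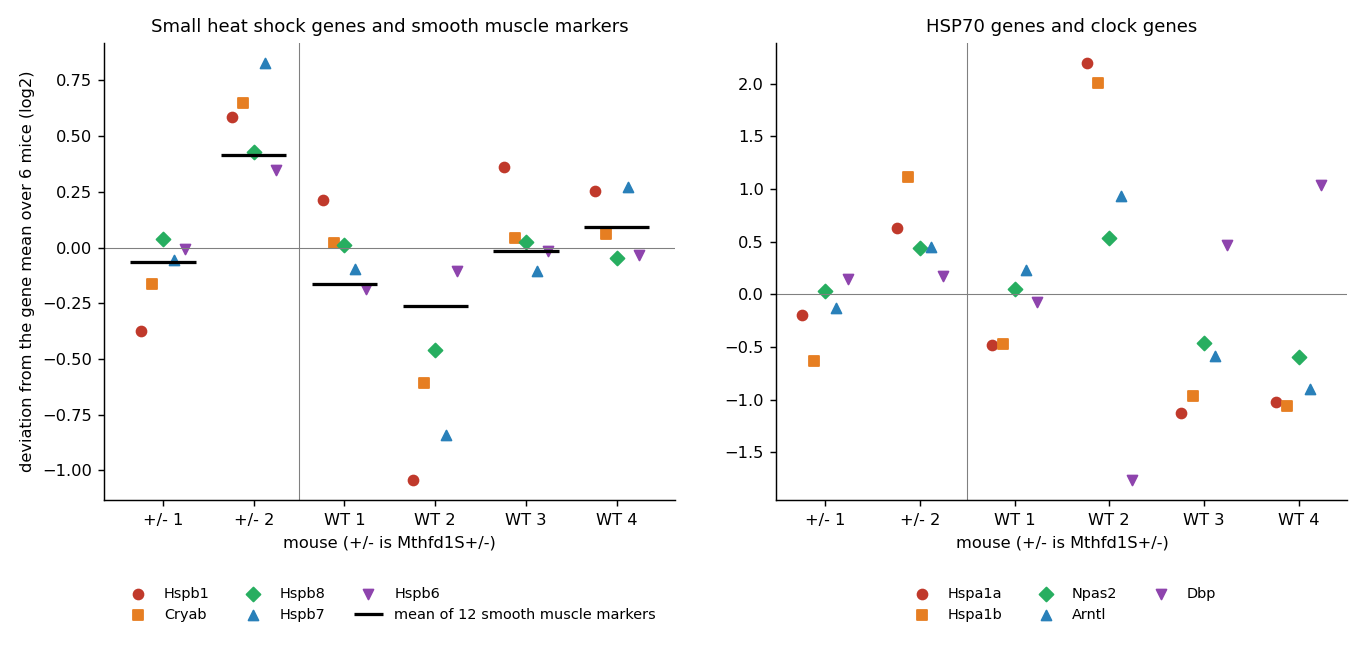
Deviation from the gene's mean over the 6 mice (y axis, log2) in each mouse (x axis). The left panel has 5 small heat shock genes with the mean of 12 smooth muscle markers as black bars; Hspb1, Cryab, Hspb8 and Hspb7 are lowest in WT mouse 2 and highest in Mthfd1S+/- mouse 2. The right panel has both HSP70 genes with 3 clock genes; in WT mouse 2 Hspa1a is at 2.19 and Dbp at -1.76.

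Clock genes differed among the WT mice, with WT mice 2 and 4 mostly at opposite ends. Dbp, an output gene of the clock (named, as are Arntl, Per3 and Nr1d2, after the values were seen), read 8.98 and 9.01 in Mthfd1S+/- mice, against 8.76, 7.08, 9.30 and 9.88 in WT mice. Arntl, which drives that output and cycles in the opposite phase, read 7.86 and 8.44 in Mthfd1S+/- mice, against 8.22, 8.93, 7.40 and 7.10 in WT mice. The same mouse, WT mouse 2, was thus lowest in Dbp and highest in Arntl. Npas2, a partner of Arntl, read 9.01 and 9.42 in Mthfd1S+/- mice, against 9.02, 9.51, 8.51 and 8.39 in WT mice. Nr1d1, a repressor of Arntl, read 10.12 and 10.22 in Mthfd1S+/- mice, against 9.66, 8.53, 9.69 and 10.11 in WT mice. Its genotypes did not overlap, as in 14.0% of all tested clusters. Per3 and Nr1d2 were lowest in WT mouse 2 too, at 6.16 and 7.26. Cry1 was highest there at 7.59, while Clock was at 10.28 in both Mthfd1S+/- mouse 2 and WT mouse 2, its top pair. Of 11 clock genes, WT mouse 2 was lowest in 6 and highest in 3, and WT mouse 4 was highest in 6 and lowest in 2. Over all tested clusters, WT mouse 2 was lowest in 18.2% and highest in 15.2%, and WT mouse 4 was lowest in 14.3%. The share in which WT mouse 4 was highest was not counted. The deviations of WT mouse 2 and WT mouse 4 were 0.94 and -0.89 for Arntl, 0.53 and -0.59 for Npas2 and -1.76 and 1.04 for Dbp. In Mthfd1S+/- mouse 2 Npas2 and Arntl were 0.44 and 0.45 above their means while Dbp was 0.18 above, so this mouse did not have the low Dbp of WT mouse 2. The part of the clock in the chaperone levels was not tested.

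Other stress programmes were read in the same mice. Cirbp, an RNA-binding protein that cold induces, read 7.14 and 6.27 in Mthfd1S+/- mice, against 6.66, 6.97, 6.84 and 6.87 in WT mice. It was lowest in Mthfd1S+/- mouse 2, but WT mouse 2 had the highest value among the WT mice. Genes of the unfolded protein response, the stress programme of the endoplasmic reticulum, had mean deviations of -0.077 and 0.18 in Mthfd1S+/- mice, against -0.042, -0.074, 0.15 and -0.14 in WT mice. Immediate early genes, which answer within minutes of a stimulus, had 0.014 and -0.22 in Mthfd1S+/- mice, against 0.075, 0.032, 0.18 and -0.081 in WT mice. Targets of NRF2, the factor of oxidative stress, had 0.06 and -0.085 in Mthfd1S+/- mice, against 0.037, 0.035, -0.038 and -0.009 in WT mice. None of these programmes had Mthfd1S+/- mouse 2 and WT mouse 2 together at the top. Goblet cell markers had mean deviations of -0.28 and 0.03 in Mthfd1S+/- mice, against -0.086, 0.11, 0.24 and -0.018 in WT mice, and T and NK cell markers -0.054 and 0.099 in Mthfd1S+/- mice, against 0.023, -0.091, 0.057 and -0.034 in WT mice. B and plasma cell markers had -0.035 and -0.088 in Mthfd1S+/- mice, against -0.011, -0.023, 0.19 and -0.031 in WT mice, and macrophage and neutrophil markers 0.12 and -0.084 in Mthfd1S+/- mice, against -0.007, -0.065, 0.056 and -0.024 in WT mice. Endothelial markers had -0.044 and 0.05 in Mthfd1S+/- mice, against -0.045, -0.10, 0.14 and -0.001 in WT mice, and adipocyte markers -0.63 and -0.52 in Mthfd1S+/- mice, against 0.40, -0.10, 1.25 and -0.41 in WT mice. At an unadjusted p under 0.05 in limma, 3 of 14 immediate early genes and 2 of 9 B and plasma cell markers were lower in Mthfd1S+/- mice. So were 2 of 7 adipocyte markers and 1 of 10 goblet cell markers. The other lists of this paragraph had 0 at that p, where 5.79% of clusters passed it. The part of these cell types in the chaperone levels was not tested.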

How the data were processed

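RNA of 6 mice (2 Mthfd1S+/- and 4 WT) was hybridised, 1 array per mouse, to the Affymetrix Mouse Gene 2.0 ST platform. The deposited table holds log2 values. The submitters' processing notes name Affymetrix Expression Console; its version is not given in the sources used here, nor are the summary method and build. Values from 1.06 to 13.5 fit a log2 scale. Array medians were 5.485 to 5.532, and the number of arrays limits the precision. Without detection calls, dim clusters may be background. Of 41345 clusters, 23521 had 1 gene symbol in the platform table and were tested, 1814 had several and 16010 none. Through gene identifiers 23328 matched the RefSeq table of GRCm38.p6, and 0 symbols differed. The genotype test was that of limma 3.58.1 under R 4.3.3, two-sided and without covariates (lmFit, then eBayes; 4 residual and 4.35 prior degrees of freedom), with Benjamini-Hochberg adjustment over all tested clusters and a threshold of 0.05. Steps were checked on simulated data.

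The members, the 26 lists (260 genes, 241 measured) and the tests were chosen with earlier results of these data known. Members are named in full, with up to 4 genes per other chaperone, clock or muscle list by smallest p (all in lists of 6 or fewer) and the 8 genes nearest to the inducible profile. Alternatives were another scaling, filters, moderation, a replicate block, the letter of the mouse identifier and leaving out each mouse.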

Additional observations from a re-analysis of the deposited data

Results flagged for a closer look

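Within the 4 WT mice, the gap of the most distant mouse to its nearest neighbour was divided by the whole range and held against Dixon's critical value at 95%, which chance passes in about 5% of groups and which 4.92% of all tested clusters passed. It was computed for 41 named genes and 24 list means, and 5 passed. Left out were the members, and genes named for their likeness to them or only after their values were seen. Single mice had a part in choosing these. Cryab passed with 0.943 and Hspb8 with 0.857, both with WT mouse 2 low. Cryab had also been picked out after its values were seen, but stayed in because it was named by smallest p too. Both genes belong to the family of Hspb1. The same mice were already known to differ in Hspb1, so these results are no independent support. Grpel1 passed with 0.854, with WT mouse 1 high. Among list means, the co-chaperones passed with 0.836, with WT mouse 4 low, and the B and plasma cell markers with 0.908, with WT mouse 3 high.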

How the results depend on the processing

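No cluster passed the adjusted threshold under any alternative run. The count of members at an unadjusted p under 0.05, 0 with all mice, was 1 with the replicate block (Hspa1b), 2 within identifier letter B (Hsph1 and Hsp90aa1) and 2 without both mice numbered 2 (Hspa1a and Hspb1, an alternative chosen after seeing the data). With the next brightest cluster of a gene in place of the brightest, Hspa8 had 0.53 (p 0.0492, adjusted 0.837 in limma) and Hspb1 0.214. The count ran from 0 to 4 when 1 mouse was left out, with 4 (Hspa1a, Hspa1b, Dnajb1 and Hspa8) without WT mouse 2 and 3 (Hsph1, Hsp90aa1 and Hspa8) without Mthfd1S+/- mouse 1.

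Replicate numbers 1 and 2 occur in both genotypes, the correlations of same-numbered deviations were 0.117 and -0.044, and nothing in the labels makes them pairs. Turned in sign with the replicate block were Hspa1a (-0.642), Hspa1b (-0.524) and Dnajb1 (-0.252). Within identifier letter A, with 1 mouse per genotype and no test, these were Hspb1 (-0.588), Hsph1 (-0.412), Hsp90aa1 (-0.212), Hspa1b (-0.16) and Hspd1 (-0.062). Without both mice numbered 2, they were Hspb1 (-0.651), Hsp90aa1 (-0.066), Hsph1 (-0.064), Hspe1 (-0.008) and Hspd1 (-0.004). Leaving out 1 mouse gave ranges of -0.091 to 1.09 for Hspa1a, -0.508 to 1.24 for Hspa1b, -0.077 to 0.303 for Dnajb1, -0.254 to 1.22 for Hsph1, -0.055 to 0.385 for Hsp90aa1, -0.321 to 0.637 for Hspb1, -0.042 to 0.316 for Bag3 and -0.004 to 0.203 for Hspe1. The cause of these changes, beyond the mice left out, was not tested. Scaling, filters and moderation turned no sign. The inducible mean deviation of Mthfd1S+/- mouse 2 was 0.51 to 0.666 and that of WT mouse 2 was 0.357 to 0.895 when 1 member was left out, and 0.55 and 0.372 with Hspa1a and Hspa1b as 1 gene. Each of these runs kept Hspa1a or Hspa1b, on which the mean of WT mouse 2 rested. With 2 and 4 mice, a difference of the size seen in Hspa1a cannot be told from the spread between mice.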
